A study of Solanum lycopersicum with 10 samples.

Results

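The response of tomato (Solanum lycopersicum, line M82) to synthetic auxin was compared between root tips and leaf primordia, locus by locus, as the difference between the root response and the leaf response. A response is the log2 ratio of treated to mock libraries, and a positive difference means a response that was higher in root. A locus was taken into the comparison when at least 10 normalized counts were reached in at least 2 libraries of each tissue. This held for 11313 of the 35767 loci in the table, while 1351 reached the minimum in root alone, 3097 in leaf alone and 20006 in neither. Solyc01g111610, with a second highest root value of 10.001, was just inside the minimum, and Solyc11g021210, at 9.997, was just outside it.

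The data were 10 libraries in 4 groups, made from RNA of bulk tissue with a kit that sequences transcripts from the 3' end. The root groups were 1 cm root tips of seedlings, grown on plates in continuous light at 22 °C, and moved 4 days after germination to mock medium or to 1 µM 2,4-D for 3 h (n = 2 each). The leaf groups were primordia of leaf 5 at the P5 stage, 15 collected from greenhouse plants aged 3 weeks, sprayed for 3 h with mock or with 1 µM picloram (n = 3 each). Both compounds are stable synthetic auxins, and all plants were of the same line. Tissue, compound, plant age, growth conditions and way of application all changed together between the experiments, so their parts in a difference cannot be told apart. Nothing in the labels says that replicates came from separate plants or plates, so p-values measure the spread between these libraries, which may be technical. In bulk tissue, fewer cells of a type and less RNA per cell cannot be told apart.

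Auxin acts by bringing TIR1/AFB receptors together with Aux/IAA proteins, which are then degraded. Their loss frees ARF transcription factors from repression by Aux/IAA proteins and TOPLESS co-repressors, and Aux/IAA and GH3 genes are themselves classic early targets. GH3 enzymes conjugate auxin to amino acids, PIN proteins carry it out of cells and AUX1/LAX proteins carry it in. Auxin is best known for inhibiting elongation of the primary root, and in young leaves for setting margins, leaflets and veins. The table gives Solyc identifiers without gene names, and loci were placed in 29 lists by identifiers recalled from published family inventories. A role given below is therefore that of the list, and membership was not checked locus by locus.

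Library totals ran from 2.83 to 2.96 M normalized counts for root and from 1.83 to 2.06 M for leaf. A root marker, Solyc07g006900, stood at 321 to 436 in root and at 0 to 2.4 in leaf. The other 2 loci of the root marker list did not mark root. Solyc10g074680 was lower in root, at 108 to 136, than in leaf, at 154 to 236. Solyc02g092370 overlapped, at 8.67 to 11.9 in root and 7.16 to 14.1 in leaf. The 27 light-harvesting and Rubisco loci summed to 22795 to 24516 in mock leaf, 13199 to 16568 on picloram and 309 to 538 in root, with 8 to 14 members at 0 in root and 1 or 2 in leaf. Most of the root sum was Solyc01g105050. Without that locus the sum was 42.4 and 145 in root mock libraries 1 and 2, and 28.8 and 195 in 2,4-D libraries 1 and 2, so both root libraries numbered 2 were higher. The part of these shifts in the results below was not tested.

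Of the 11313 loci, 425 (3.76%) differed between the tissues at a Benjamini-Hochberg adjusted p under 0.05 in limma's moderated linear model, the threshold for every call below. The response was higher in root for 249 of them (2.20% of those tested) and higher in leaf for 176 (1.56%). Over the same loci, 309 rose on 2,4-D in root (2.73%) and 117 fell (1.03%), while 506 rose on picloram in leaf (4.47%) and 669 fell (5.91%). Among the 425 the median size of the difference was 1.75 on the log2 scale, the smallest was 0.68, and 153 reached 2. An unadjusted p under 0.05 was found at 1923 loci.

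**Figure D1:**
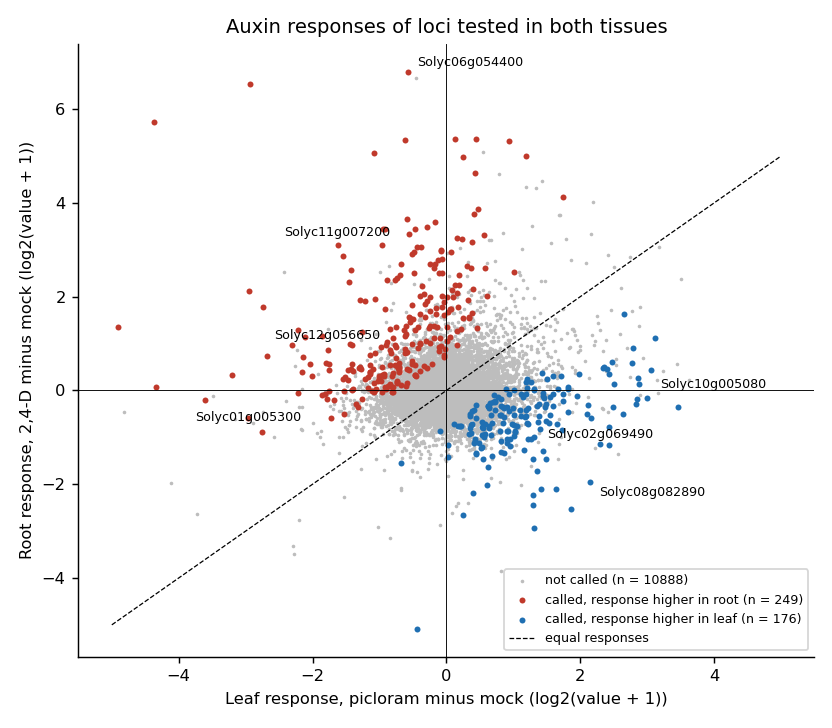
Each point is 1 of the 11313 loci, with the leaf response to picloram on the horizontal axis and the root response to 2,4-D on the vertical axis, both as log2 ratios of treated to mock. The 249 loci called higher in root lie above the diagonal and the 176 called higher in leaf lie below it.

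Most called differences came from a response in 1 tissue beside no call in the other. On the root side, 113 loci rose in root and were not called in leaf, with a median root response of 2.01 and a median leaf response of -0.13. Of these 113, 52 had a root mock mean under 10. The pattern held 54 loci when a mock mean of at least 10 was required in each tissue, and 70 at a minimum of 30. Another 105 fell in leaf and were not called in root, where the median leaf response was -1.14. On the leaf side, 107 rose in leaf without a call in root (median leaf response 1.36), and 28 fell in root without a call in leaf (median root response -1.14). The tissues went in opposite called directions at 14 loci that rose in root and fell in leaf and at 23 that fell in root and rose in leaf. Responses called in the same direction made up 6 of the 425, and 29 differed with no call in either tissue alone. These patterns are set by the same 2 contrasts that make up the difference, and are given as a description.

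A call in 1 tissue alone was often not accompanied by a called difference. Of 230 tested loci that rose in root without a call in leaf, 113 (49.1%) differed between tissues. The share was 41.8% of the 67 that fell in root alone, 25.6% of the 418 that rose in leaf alone and 16.7% of the 628 that fell in leaf alone. Of 65 loci that rose in both tissues 5 differed, 4 of them with the higher response in root, and of 27 that fell in both 1 differed. Among the 9841 loci called in neither, 29 (0.295%) differed.

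**Figure D2:**
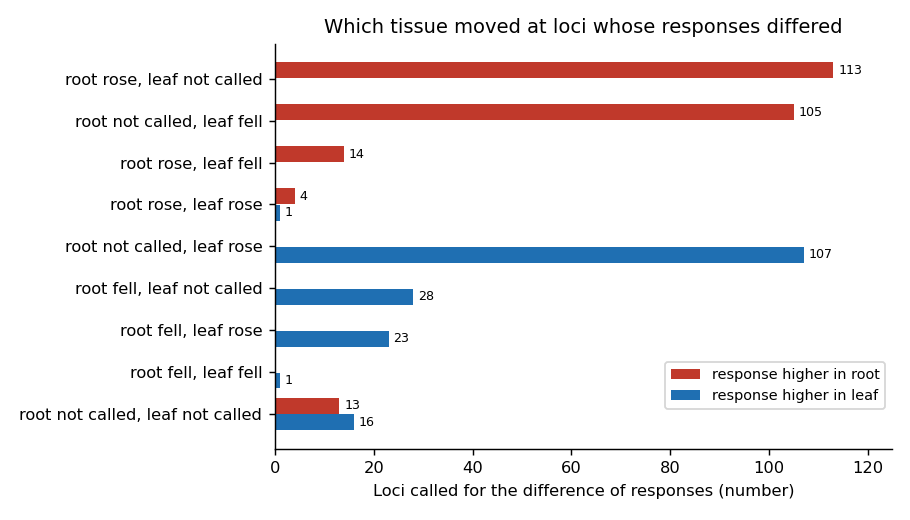
Bars count the 425 called loci by what was called in each tissue, on a linear axis from 0, separately for responses higher in root and higher in leaf. The longest bars are 113 loci that rose in root alone, 107 that rose in leaf alone and 105 that fell in leaf alone, and opposite calls account for 14 and 23.

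The count of calls depended on the root groups of 2 libraries. It was 197 and 217 without root mock library 1 or 2, 167 and 174 without 2,4-D library 1 or 2, and 17 or 25 without both root libraries numbered 1 or both numbered 2. The balance of directions turned with it. More loci were higher in leaf without 2,4-D library 1 (80 in root against 87 in leaf) or 2 (79 against 95), and the majority in root widened without root mock library 1 (137 against 60) or 2 (148 against 69). The 176 loci higher in leaf also became 108 and 115 without picloram library 2 or 3. The 113, 105, 107 and 28 loci with a call in 1 tissue went down to 27, 38, 47 and 2 at the lowest when 1 library was left out. The 14 and 23 loci with opposite calls went down to 4 and 2 at the lowest when 1 library was left out, and both went to 7 without the mean-variance trend.

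Some clock loci showed wide differences. The circadian clock runs on transcription factors made in the morning and in the evening that repress or activate one another, and its phase sets the level of many transcripts. The morning-phased list had 3 of 5 members tested, of which 1 differed in each direction. The evening-phased list had 5 of 12 tested, of which 3 responded higher in root and 0 in leaf. Of all tested loci, 2.20% were called higher in root and 1.56% higher in leaf. The median difference of the evening-phased list was 2.56, against 0.02 over all tested loci. That median is the value of 1 locus, Solyc04g071990, whose entry and lost calls are given below. Both lists include loci already known from these data to respond in leaf, so their counts and medians are not read as a result. Growth light also differed between the experiments, continuous for the seedlings.

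In the morning-phased list, Solyc10g005080 stood at 24.96 and 27.6 normalized counts in root mock, 35.4 and 36.9 on 2,4-D, 84.1, 89.6 and 71.8 in leaf mock, and 766, 702 and 599 on picloram. The 3 picloram libraries were far above all others, and the root libraries lay close together. Its difference was -2.61 ± 0.23 (SE, limma, adjusted p = 0.000144), from a leaf response of 3.06 ± 0.15 (SE) and a root response of 0.45 ± 0.18 (SE). The other called member, Solyc04g049670, went the other way in leaf. It stood at 139 and 119 in root mock, 159 and 161 on 2,4-D, 338, 254 and 247 in leaf mock, and 57.0, 70.7 and 77.2 on picloram. All picloram libraries were below every other library, and the difference was 2.33 ± 0.25 (SE, limma, adjusted p = 0.000525). That call ended without both root libraries of either number (adjusted p up to 0.0914). Solyc01g068560, the remaining tested member, was not called, at -0.98 ± 0.32 (SE, limma, adjusted p = 0.134).

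Among evening-phased loci, Solyc12g056650 was called in opposite directions. It stood at 52.4 and 44.7 in root mock, 106 and 75.7 on 2,4-D, 281, 279 and 339 in leaf mock, and 87.6, 83.7 and 90.0 on picloram. Root and leaf levels, separate in mock, overlapped after treatment. The root response was 0.87 ± 0.19 (SE, limma, adjusted p = 0.0231), the leaf response -1.77 ± 0.16 (SE, limma, adjusted p = 6.84e-05) and the difference 2.64 ± 0.25 (SE, limma, adjusted p = 0.000202).

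Solyc01g005300 had the widest difference of the evening-phased list. It was at 63.4 and 59.3 in root mock, 61.7 and 46.0 on 2,4-D, 213, 171 and 147 in leaf mock, and 18.6, 10.2 and 12.5 on picloram. Leaf was above root in every mock library and below it in every treated library, and the difference was 3.41 ± 0.37 (SE, limma, adjusted p = 0.000525), a call lost without both root libraries of either number (adjusted p up to 0.0942). Solyc04g071990 was at 82.1 and 69.2 in root mock, 89.9 and 110 on 2,4-D, 27.2, 26.6 and 22.5 in leaf mock, and 7.07, 7.23 and 2.06 on picloram. It reached the leaf minimum through mock libraries only, an entry that favours a fall in leaf. Its difference of 2.56 ± 0.56 (SE, limma, adjusted p = 0.028) was lost in 8 of 26 alternatives, among them each omission of 1 root library or of leaf mock library 2 (adjusted p up to 0.456). The remaining 2 tested members, Solyc08g065870 and Solyc11g070100, were not called, at 0.41 ± 0.25 and -1.31 ± 0.49 (SE, limma, adjusted p = 0.453 and 0.193).

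**Figure D3:**
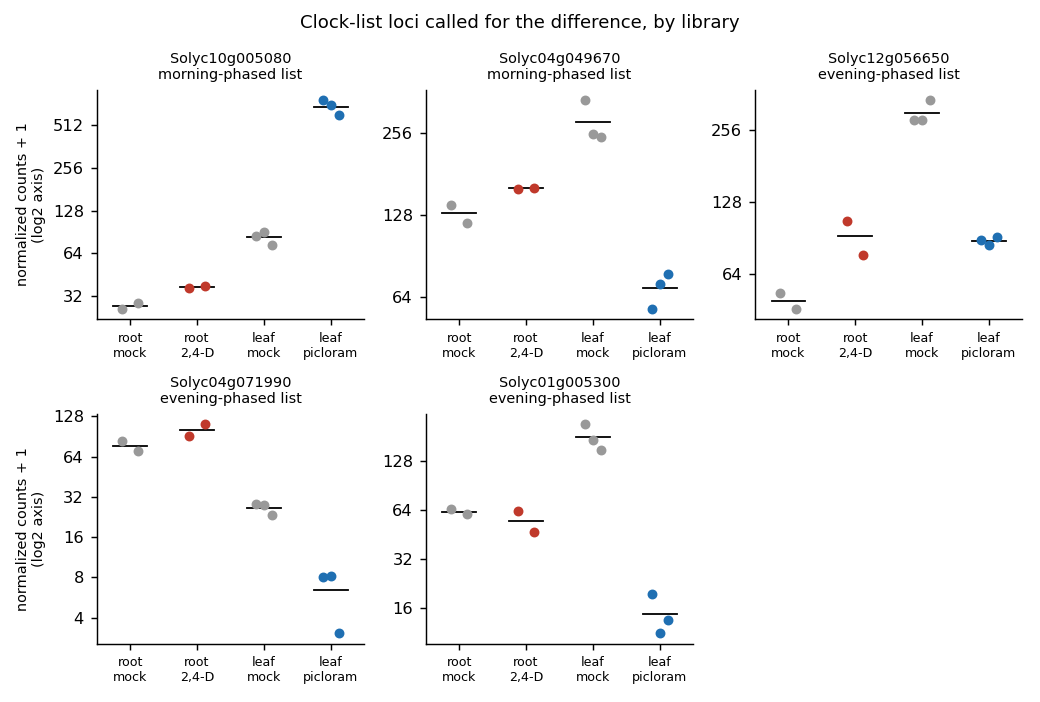
Points are libraries, and black lines are group means, for clock loci called for the difference. The vertical axis is normalized counts plus 1 on a log2 scale, with mock in grey, 2,4-D in red and picloram in blue. At each locus the picloram libraries stand apart from leaf mock, and the root groups lie closer together.

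Photoreceptor and light-signalling loci were measured beside the clock. Of the list of phytochromes, cryptochromes, HY5 and PIF factors, 7 of 13 members were tested. By limma 0 were called in either direction, with a median difference of -0.43. At a background of 3.76%, a list of this size can hold no call without standing apart.

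In the Aux/IAA list, the repressors of auxin signalling, 15 of 21 members were tested. Of these, 6 rose in root and 8 rose in leaf, against 2.73% and 4.47% of all tested loci. The list was drawn up with earlier results of these data known, so these counts are not read as a result. Some risers passed the minimum through treated libraries only, an entry that favours a rise, and are named for it. They were Solyc06g084070 in both tissues and Solyc03g120390 in root. Solyc03g120380 met the minimum in leaf through picloram libraries, with 13.0, 2.43 and 8.34 in leaf mock. Between tissues 1 of the 15 differed, a share that is not read as a result beside the 3.76% of all tested loci. The median response was 0.96 in root and 0.77 in leaf, and the median difference was -0.11, with 10 of 15 differences below 0. The 95% interval of the difference lay within 1 log2 unit on either side of 0 for 3 of the 15, against 38.3% of all tested loci, so differences of that size were not bounded for most of the list.

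Solyc04g076850 was the called Aux/IAA member and one of high level. It stood at 1049 and 1029 in root mock, 2134 and 1920 on 2,4-D, 1116, 1332 and 990 in leaf mock, and 1376, 1258 and 1191 on picloram. Both 2,4-D libraries were above all other libraries, and the leaf groups overlapped. The difference of 0.80 ± 0.19 (SE, limma, adjusted p = 0.0387) was lost in 11 of 27 alternatives, among them each omission of 1 root or picloram library and quantile normalization (adjusted p up to 0.476).

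Other Aux/IAA members had wide differences in the estimate or rose in both tissues, without passing the test. Solyc09g083280 had means of 77.8 and 176 in root mock and on 2,4-D and of 33.3 and 149 in leaf mock and on picloram, rose in both, and had a difference of -0.998 ± 0.33 (SE, limma, adjusted p = 0.142). Solyc06g084070 rose in both as well, with a difference of 0.11 ± 0.51 (SE, limma, adjusted p = 0.943). Solyc09g065850 had the highest estimate of the list, 4.54 ± 3.00 (SE, limma, adjusted p = 0.495), with libraries of 1 group far apart. Its leaf mock libraries read 0, 303 and 0.470, its picloram libraries 37.0, 35.1 and 0, its root mock libraries 0.820 and 0 and its 2,4-D libraries 47.6 and 42.1. These 3 loci were chosen after their values were seen.

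Receptors, co-repressors and ARF factors act with Aux/IAA proteins. None of 10 tested ARF loci, 3 receptor loci or 5 TOPLESS loci was called by limma, with median differences of -0.31, 0.17 and -0.08. At a background of 3.76%, lists of this size can hold no call without standing apart. The interval lay within 1 log2 unit of 0 for 5 of the ARF loci, 2 of the receptors and 4 of the co-repressors. The members of highest level had differences of 0.18 ± 0.32 at the ARF locus Solyc01g096070, 0.25 ± 0.26 at the receptor locus Solyc09g074520 and 0.21 ± 0.21 at the TOPLESS locus Solyc01g100050 (SE, limma, adjusted p = 0.823, 0.679 and 0.682). Their 95% intervals ran from -0.51 to 0.88, from -0.31 to 0.81 and from -0.26 to 0.68.

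In the GH3 list, 3 of 11 loci were tested and 1 was called for the difference of transcript responses. Beside 3.76% of all tested loci, a count this small is not read as a result. Solyc07g063850 stood at 14.5 and 19.0 in root mock, 12.05 and 12.2 on 2,4-D, 229, 228 and 260 in leaf mock, and 480, 499 and 564 on picloram. Both 2,4-D libraries were below root mock, all picloram libraries were above leaf mock, and the difference was -1.53 ± 0.23 (SE, limma, adjusted p = 0.00347). The root response alone was not called (limma, adjusted p = 0.253), nor was the difference without both root libraries of either number (adjusted p up to 0.0945). The other 2 tested loci had estimates on either side of 0. Solyc02g092820 was at -1.39 ± 0.40 and Solyc01g107390, which rose in root, was at 0.98 ± 0.60 (SE, limma, adjusted p = 0.0928 and 0.457). Solyc01g107390 read 7.67 and 11.1 in root mock and 7.92, 4.85 and 3.33 in leaf mock. It thus met the minimum in both tissues only with treated libraries, an entry that favours a rise in each.

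In the auxin transport lists, 1 influx carrier locus and 0 of 6 tested PIN loci were called. Beside 3.76% of all tested loci, these counts are not read as a result. Of 3 tested AUX1/LAX loci, Solyc09g014380 stood at 326 and 285 in root mock, 265 and 256 on 2,4-D, 75.3, 101 and 99.5 in leaf mock, and 148, 140 and 166 on picloram. The picloram libraries were above leaf mock and the 2,4-D libraries below root mock, and every root library was above every leaf library. The difference of -0.95 ± 0.22 (SE, limma, adjusted p = 0.0391) was lost in 11 of 27 alternatives, among them each omission of 1 root or picloram library and the fit with no minimum (adjusted p up to 0.44). Solyc01g111310, the highest member, was at 0.01 ± 0.26 (SE, limma, adjusted p = 0.992), with a 95% interval from -0.57 to 0.59 and a sign that changed in 10 of 27 alternatives.

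The PIN list had a median difference of -0.35. Its highest member, Solyc10g078370, was at -0.57 ± 0.22 (SE, limma, adjusted p = 0.207), with an interval from -1.06 to -0.09. Solyc10g080880, which rose in root, was at 1.21 ± 0.31 (SE, limma, adjusted p = 0.0594), chosen for mention on its value. Of the YUCCA and TAA loci, which make auxin, 2 of 8 were tested and 0 were called by limma. The interval of chromosome 1 that is rich in SAUR genes, a family of rapid auxin targets, had 3 of 56 loci tested and 0 called.

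**Figure D4:**
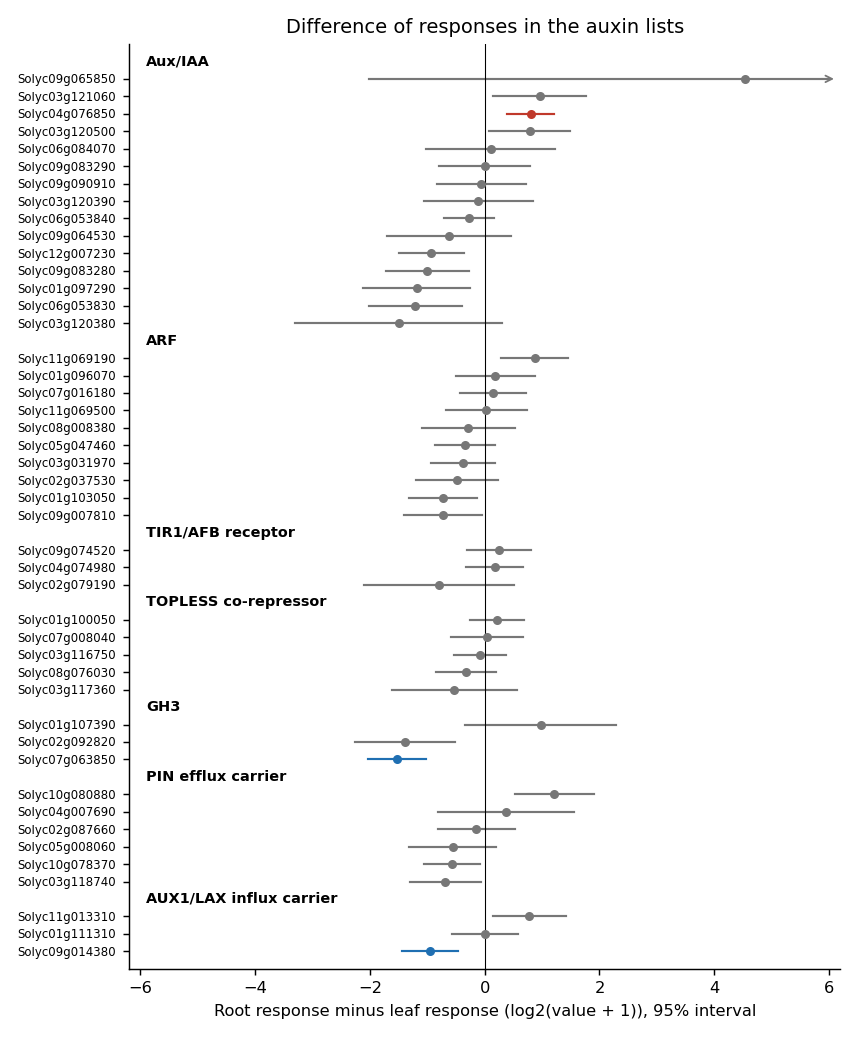
Points give the difference of responses, root minus leaf on the log2 scale, for each tested locus of the auxin lists, with the 95% interval as a bar. Red marks a called difference higher in root, blue one higher in leaf and grey no call, and the interval of Solyc09g065850 runs past the axis.

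Other hormone lists gave single called loci rather than groups. Of all tested loci, 3.76% were called. As the lists were drawn up with earlier results of these data known, counts in the hormone lists are not read as a result. In ethylene biosynthesis, ACC synthase and ACC oxidase make the hormone. All 3 tested loci of 13 rose in root, against 2.73% of all tested loci, a share that is not read as a result either. Their differences were above 0, with a median of 1.61, yet 0 were called. Solyc08g081550, named for its entry, reached the minimum in both tissues through treated libraries only, which favours a rise in each. Solyc02g081190 came nearest, at 1.61 ± 0.46 (SE, limma, adjusted p = 0.087), chosen for mention on its value. In the list of ethylene receptors and signalling, 1 of 11 tested loci was called and the median was 0.12. Solyc06g073730 stood at 2.63 and 2.25 in root mock, 13.4 and 34.0 on 2,4-D, 14.6, 17.2 and 9.19 in leaf mock, and 10.8, 15.2 and 8.19 on picloram. The 2,4-D libraries were above root mock, and the leaf groups overlapped. The difference was 2.95 ± 0.64 (SE, limma, adjusted p = 0.0277), and it was lost in 6 of the 21 alternatives that tested it, among them the omission of root mock 1 or 2, leaf mock 2 or picloram 1 or 3 and quantile normalization (adjusted p up to 0.103). It reached the root minimum through 2,4-D libraries only, an entry that favours a rise in root.

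Jasmonate is a hormone of wounding and defence. In its list of synthesis and signalling loci, 1 of 7 tested loci was called, beside 3.76% of all tested loci. The median was -0.59. Solyc02g085730 stood at 399 and 362 in root mock, 366 and 328 on 2,4-D, 615, 612 and 433 in leaf mock, and 1614, 2021 and 1271 on picloram. The picloram libraries were above all others, and the root groups overlapped. Its difference of -1.69 ± 0.28 (SE, limma, adjusted p = 0.00654) was not called without both root libraries of either number (adjusted p up to 0.28).

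The brassinosteroid list covers a steroid hormone that promotes cell elongation. In it 1 of 6 tested loci was called, beside 3.76% of all tested loci, with a median of -0.24. Solyc02g069490 stood at 3516 and 3162 in root mock, 2023 and 2154 on 2,4-D, 734, 554 and 508 in leaf mock, and 1271, 1839 and 1512 on picloram. Both 2,4-D libraries were below root mock and every picloram library above leaf mock, and the difference was -2.04 ± 0.25 (SE, limma, adjusted p = 0.000972). The root response alone was not called, at -0.68 ± 0.19 (SE, limma, adjusted p = 0.0786), and the difference was not called without both root libraries of either number (adjusted p up to 0.19).

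For strigolactone synthesis, a root-made hormone that restrains branching, 1 of 4 loci was tested and called. Solyc08g062950 was listed at 0 in both root mock libraries and at 78.3 and 34.2 on 2,4-D. In leaf mock it was listed at 0, 97.0 and 90.1, and in all 3 picloram libraries at 0. Leaf mock thus held both a 0 and high values. The adjusted p of the difference was 0.0222 (limma), and no fold is given against groups listed at 0. It reached the minimum in root through 2,4-D libraries only and in leaf through mock libraries only, so its entry in both tissues favours the called direction. It was called in 12 of the 19 alternatives that tested it, and not without root mock 1 or 2, without any 1 picloram library, with robust moderation or without the trend (adjusted p up to 0.113). The omission of either 2,4-D library or of leaf mock 2 or 3 left it below the minimum. Cytokinin loci (5 tested of 16) and abscisic acid loci (1 of 8) had 0 called by limma, and of 11 gibberellin oxidase loci none was tested.

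Among developmental regulators, 1 locus of the KNOX and BELL homeobox list was called. With 2 members tested, that count is not read as a result beside the 3.76% of all tested loci. Some members of this list keep meristem cells undetermined and, in tomato, promote leaf complexity. Whether the called locus is among them was not checked. Solyc07g007120, 1 of 2 tested members of 10, stood at 10.1 and 4.44 in root mock, 38.2 and 48.1 on 2,4-D, 600, 615 and 453 in leaf mock, and 440, 516 and 643 on picloram. Every leaf library was above every root library, the 2,4-D libraries were above root mock, and the leaf groups overlapped. The difference was 2.56 ± 0.39 (SE, limma, adjusted p = 0.00365), with a root response of 2.50 ± 0.30 (SE) and entry to the root minimum through the 2,4-D libraries only. The call was lost without both root libraries numbered 2 (adjusted p up to 0.162). HD-ZIP III loci, which set the upper side of leaves and xylem, were all tested (5 of 5) with 0 called by limma and a median of -0.10. Neither the 12 compound leaf patterning loci nor the 8 YABBY loci had a tested member.

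Growth and cell division loci were counted against the same background of 3.76%, at which so few loci can hold no call without standing apart. Of the 10 cyclin, CDK and WEE1 loci, which drive and restrain the cell cycle, all were tested, 0 were called by limma and the median was 0.05. The 6 tested expansins of 16, which loosen the cell wall, had 0 called and a median of 0.03. Nearest to a call was Solyc04g078470 of the cell cycle list at 1.27 ± 0.32 (SE, limma, adjusted p = 0.0531), chosen for mention on its value. Of the light-harvesting loci 3 of 27 were tested, and of the root markers 2 of 3, with 0 called in both lists.

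Flavonoid and anthocyanin synthesis, which makes pigments and auxin transport modulators, had 2 of 5 tested loci called, both higher in leaf, of 17 in the list. The median was -1.05, and 3 rose in leaf. Of all tested loci, 1.56% were called higher in leaf and 4.47% rose in leaf. As the lists were drawn up with earlier results of these data known, these counts are not read as a result. Solyc09g007920 stood at 449 and 490 in root mock, 632 and 586 on 2,4-D, 1153, 1281 and 1014 in leaf mock, and 2994, 3253 and 2980 on picloram. Treated libraries were above mock in both tissues, by more in leaf, and the difference was -1.05 ± 0.17 (SE, limma, adjusted p = 0.0056), a call lost without the mean-variance trend and without both root libraries of either number (adjusted p up to 0.26).

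Its neighbour Solyc09g007910 stood at 75.8 and 104 in root mock, 108 and 65.1 on 2,4-D, 23.4, 40.9 and 36.5 in leaf mock, and 138, 93.5 and 107 on picloram. Root groups overlapped and leaf groups did not. Its difference of -1.82 ± 0.41 (SE, limma, adjusted p = 0.0321) was lost in 9 of 27 alternatives, among them the replicate block, the fit without the trend, and the omission of root mock 1 or 2, 2,4-D library 2 or picloram 1 or 3 (adjusted p up to 0.513). As the identifiers are adjacent and belong to 1 family list, the authors' counting may have divided reads between them, and both values are uncertain.

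Over the lists together, 132 loci were tested and 15 called (11.4%), 8 higher in root and 7 higher in leaf, in 11 of the 29 lists. Because the lists were drawn up with earlier results of these data known, that share cannot be read against the 3.76% of all tested loci.

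Of loci that were called in opposite directions, those furthest apart lay outside the lists. Solyc11g007200 stood at 40.7 and 45.6 in root mock, 431 and 327 on 2,4-D, 658, 535 and 653 in leaf mock, and 272, 195 and 147 on picloram. Leaf was above root in mock, and after treatment root was above leaf. The difference was 4.72 ± 0.32 (SE, limma, adjusted p = 2.63e-05), made of a root response of 3.09 ± 0.25 and a leaf response of -1.62 ± 0.20 (SE).

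Solyc10g078530 followed the same pattern. It stood at 24.5 and 48.7 in root mock, 295 and 225 on 2,4-D, 184, 200 and 167 in leaf mock, and 73.2, 63.2 and 51.8 on picloram. The order of the tissues again changed, with a difference of 4.41 ± 0.37 (SE, limma, adjusted p = 0.000116).

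The mirror image was seen at Solyc08g082890, with 36.1 and 26.6 in root mock, 6.08 and 8.65 on 2,4-D, 67.8, 26.5 and 49.5 in leaf mock, and 179, 204 and 222 on picloram. Mock root and mock leaf overlapped and the treated groups did not. Its difference was -4.10 ± 0.48 (SE, limma, adjusted p = 0.000743). Solyc06g036260 stood at 16.5 and 20.5 in root mock, 2.51 and 4.83 on 2,4-D, 60.6, 66.5 and 80.9 in leaf mock, and 203, 241 and 208 on picloram. Leaf was above root throughout and by more after treatment, with a difference of -3.74 ± 0.36 (SE, limma, adjusted p = 0.000275). Both of these loci reached the root minimum through mock libraries only, an entry that favours a fall in root. For each, 5 of 27 alternatives did not test the difference.

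**Figure D5:**
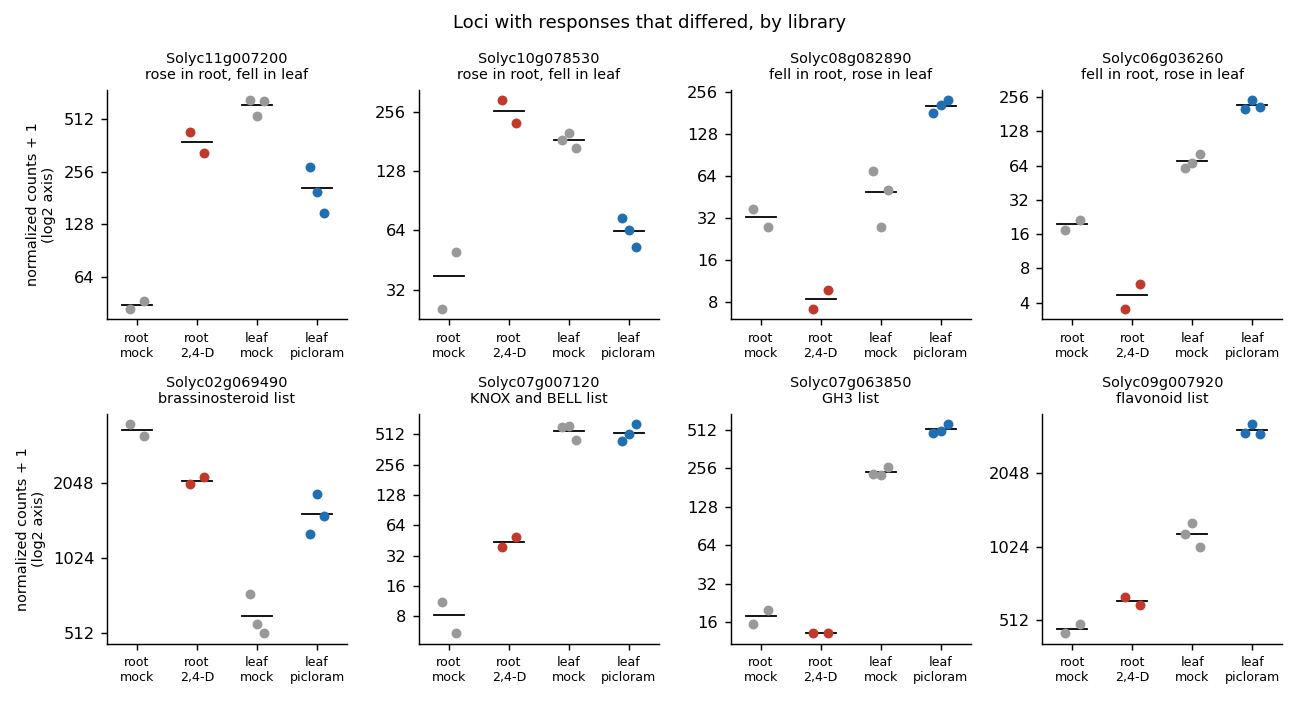
Points are libraries, and black lines are group means, for named loci whose responses differed. The vertical axis is normalized counts plus 1 on a log2 scale, with mock in grey, 2,4-D in red and picloram in blue. Solyc11g007200 and Solyc10g078530 go up in root and down in leaf, and Solyc08g082890 and Solyc06g036260 do the reverse. The other panels show Solyc02g069490, Solyc07g007120, Solyc07g063850 and Solyc09g007920.

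The highest estimates included loci listed at 0 in a whole group. Solyc06g054400 was listed at 0 in both root mock libraries and stood at 101 and 120 on 2,4-D, 114, 101 and 84.8 in leaf mock, and 71.6, 68.9 and 59.0 on picloram. The treated root libraries lay near the level of leaf mock, and the adjusted p of the difference was 7.03e-07 (limma). Its root mock values had an SD of 0, and 5 of 27 alternatives did not test the locus. Solyc11g010280 was also listed at 0 in both root mock libraries, with 114 and 73.2 on 2,4-D, 151, 302 and 101 in leaf mock, and 0, 85.2 and 119 on picloram. Its picloram libraries included a 0 beside 119, and the adjusted p was 0.0321 (limma). It was called in 16 of the 21 alternatives that tested it, and not without root mock 1 or 2, leaf mock 2 or the trend, nor with robust moderation (adjusted p up to 0.167). Both reached the root minimum through 2,4-D libraries only, and no fold is given for either.

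At the other end, Solyc08g076335 stood at 33.2 and 115 in root mock, 0 and 2.44 on 2,4-D, 56.5, 24.3 and 64.0 in leaf mock, and 40.0, 25.2 and 33.9 on picloram. The leaf groups overlapped, and the difference was -4.65 ± 0.87 (SE, limma, adjusted p = 0.0123). Solyc07g053790 stood at 47.3 and 59.7 in root mock, 6.10 and 6.13 on 2,4-D, 13.9, 9.72 and 11.6 in leaf mock, and 14.4, 25.1 and 73.8 on picloram. Its picloram libraries were spread widely, and the difference was -4.23 ± 0.74 (SE, limma, adjusted p = 0.0087). Both loci reached the root minimum through mock libraries only, and both calls were lost without 2,4-D library 1 (adjusted p up to 0.0702 and 0.0508).

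Whole groups listed at 0 were rare, at 8 tested loci, of which 5 were called, all higher in root. A library at 0 beside one of at least 10 in the same group was found at 68 tested loci (0.601%), 2 of them among the 425.

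The minimum on low values shaped which loci could be seen. Of 534 loci that reached it in root only through 2,4-D libraries, 71 were called higher in root and 2 higher in leaf. Of 494 that reached it there only through mock libraries, 0 were called higher in root and 23 higher in leaf. The same held in leaf, where 364 entered through picloram alone (0 higher in root, 10 higher in leaf) and 269 through mock alone (18 and 0). With a mock mean of at least 10 required in each tissue in place of the minimum, 333 loci were called, 177 higher in root and 156 higher in leaf.

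Mock levels enter the contrast, so the order of the tissues in mock is given as a description. Among the 249 higher in root, 197 (79.1%) were lower in root than in leaf in mock, against 39.4% of all tested loci, and the tissues changed order after treatment at 103 (41.4%). The median gap between tissues at these loci was 1.54 in mock and 1.19 after treatment, on the log2 scale. Among the 176 higher in leaf, 54 (30.7%) were lower in root in mock, 78 (44.3%) changed order, and the median gap was 1.03 in mock and 1.30 after treatment. All tested loci changed order in 16.5% of cases.

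The share called and the SE both varied with level. In 4 equal bins of tested loci, from the lowest mean level to the highest, the percentage called was 1.84, 2.72, 4.46 and 6.01, and the median SE of the difference was 0.54, 0.39, 0.29 and 0.22. The 95% interval lay within 1 log2 unit of 0 at 4330 loci (38.3%), and 982 loci had an estimate of at least 1 in size without a call.

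By position, the calls were spread over the genome. The share called on each chromosome, as the identifiers give it, ran from 3.19% on chromosome 8 to 5.23% on chromosome 5, with 2.41% among loci assigned to no chromosome. Of 4679 pairs of tested loci with adjacent identifiers, the first was called in 183, and in 7 of those (3.83%) the second was called too. Of the 7 pairs, 4 had the same direction and 3 opposite directions.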

How the data were processed

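Transcripts were measured in 4 root and 6 leaf libraries. The deposited values are a signal, gene counts normalized by the authors. Per the submitters' processing notes, Salmon 0.8.2 and DESeq2 were used, with no roles given. The reference build and its annotation were not given in the sources used. Low values were not whole multiples of 1 step (59.2% to 89.3% whole per library, tolerance 0.1), so reads were not recovered and depth is unknown. The count test named in the design was replaced by its test for normalized values.

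In R 4.3.3, limma 3.58.1 was fitted, its variance following a trend on the mean level, to log2(value + 1), 1 mean per group over 10 libraries, on the 15761 loci at the minimum in either tissue (residual df 6, prior df 5.55). Folds on this scale understate changes of low loci. Tests were 2-sided, with Benjamini-Hochberg adjustment over 11313 loci for the difference, 12664 for root and 14410 for leaf. The procedure was tested on simulated data.

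The comparison and the lists were chosen with earlier results of these data known. Of 371 list identifiers 369 were in the table, and the RefSeq gene table (SLM_r2.1) matched none of the Solyc identifiers. Named loci were called list members, up to 4 per list, the highest member of each list of auxin signalling, conjugation and transport, and outside the lists the 2 highest and 2 lowest differences, overall and among opposite calls, without overlap of treated and mock libraries in the tissue called. Other loci named are marked as such or complete a list. Replicate numbers were not used to pair libraries in the main fit. The alternatives were the replicate block, pseudocounts, minimums, scalings, moderation and omitted libraries.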

Additional observations from a re-analysis of the deposited data

Results flagged for a closer look

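Each locus below had responses that differed between root and leaf by the test of the difference itself (limma, adjusted p under 0.05), given as root minus leaf on the log2 scale with the number of libraries unchanged (2 per root group, 3 per leaf group).

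Higher in root were the clock loci Solyc01g005300 (3.41), Solyc12g056650 (2.64), Solyc04g071990 (2.56) and Solyc04g049670 (2.33). So were the Aux/IAA locus Solyc04g076850 (0.80), the ethylene signalling locus Solyc06g073730 (2.95), the homeobox locus Solyc07g007120 (2.56), and, outside the lists, Solyc11g007200 (4.72) and Solyc10g078530 (4.41). Solyc06g054400, Solyc11g010280 and Solyc08g062950 were listed at 0 in root mock and are given by their adjusted p (7.03e-07, 0.0321 and 0.0222).

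Higher in leaf were the clock locus Solyc10g005080 (-2.61), the GH3 locus Solyc07g063850 (-1.53), the influx carrier locus Solyc09g014380 (-0.95), the jasmonate locus Solyc02g085730 (-1.69), the brassinosteroid locus Solyc02g069490 (-2.04) and the flavonoid loci Solyc09g007910 (-1.82) and Solyc09g007920 (-1.05). Outside the lists they were Solyc08g076335 (-4.65), Solyc07g053790 (-4.23), Solyc08g082890 (-4.10) and Solyc06g036260 (-3.74).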

How the results depend on the processing

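Of 27 alternatives, those that moved the 425 called loci (249 higher in root, 176 higher in leaf) by more than 1.5 times were the fit without a mean-variance trend, with 223 (133 and 90), and the omission of root libraries. Without picloram library 2 or 3, the loci higher in leaf alone moved by that much, to 108 and 115. Leaving out 1 library at a time gave 167 to 473 loci, 79 to 285 higher in root and 60 to 199 higher in leaf, with the majority in leaf where either 2,4-D library was left out. Without both root libraries numbered 1 the counts were 17 (12 and 5), and without both numbered 2 they were 25 (15 and 10), with 1 library left per root group, assumed to vary like the other groups. The other alternatives gave 325 to 495 loci. Equal library totals gave 217 higher in root and 198 higher in leaf. Moderation over the 11313 loci alone (485) and the omission of loci at 0 beside at least 10 in the same group (454) were chosen after seeing the data.

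With the replicate block within tissue, 414 loci were called (239 and 175), 353 of them shared, and among named loci Solyc09g007910 lost its call. Deviations of libraries with the same number correlated at 0.110 in root and at 0.0944, -0.000826 and 0.0222 in leaf. Leaf libraries of different numbers ran from -0.151 to 0.120, so those of the same number did not stand apart. Deviations within a group add up to 0, which ties these correlations together, and they cannot exclude shared batches. In root, both libraries numbered 2 held more light-harvesting counts, and whether root numbers pair libraries was not tested.

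For the 28 named loci, 621 values kept their direction and side of the threshold, 73 lost the call and 14 changed sign, all 14 at loci that were not called. At Solyc01g111310 the difference was -0.00207 with a pseudocount of 5, -0.069 with equal totals, -0.15 after quantile normalization, -0.00953 with array weights, -0.30 without root mock 2, -0.21 without 2,4-D library 2, -0.04 without leaf mock 1, -0.02 and -0.00643 without picloram 1 and 2, and -0.52 without both root libraries numbered 2, against 0.54 without both numbered 1. At Solyc01g096070 it was -0.019 after quantile normalization, -0.00546 without root mock 1, -0.069 without 2,4-D library 2 and -0.031 without leaf mock 1, against 0.44 without 2,4-D library 1. The cause of these shifts was not tested. Depth is unknown, and the SE of the difference limits what low loci can show.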
